A study of Drosophila melanogaster with 5 samples.

Results

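The 10 genes described here are the 8 maltase genes of the Mal-A cluster (Mal-A1 to Mal-A8) and both amylase genes (Amy-p and Amy-d) of D. melanogaster. They were taken by symbol or synonym from the 16988 gene symbols of the deposited counts. They are listed there as 15 of the 34111 RefSeq transcripts, and 9 of these 15, from 9 of the genes, were among the 17337 transcripts tested, those whose counts over the 5 libraries reached a sum of 10. LB-flies were Oregon-R (Oregon) adults, 3 days old by the labels, that developed at a low radiation background in an underground laboratory. NB-flies were adults of the same strain and age that developed at the normal background in a ground laboratory. Both groups were raised in the dark on the same medium of semolina, sugar and yeast. Each library holds the polyadenylated RNA of pooled whole males from 1 vial, with 3 LB libraries and 2 NB libraries. Radiation and every other difference between the underground and the ground laboratory cannot be told apart in this design.

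Amylases cut starch inside its chains, and maltases, which are alpha-glucosidases, take glucose from the ends of the short sugars that remain. In the fly these enzymes are secreted by the midgut, and amylase expression is known to be repressed by dietary sugar. The first 3 maltase genes were first described as genes of larval visceral proteins, and the amylase copies are named proximal and distal for their place on the chromosome arm.

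All 10 genes lie on chromosome 2R. The Mal-A genes fill the stretch from 8449664 to 8473961 of the dm6 assembly (24.3 kb), with 5 genes on the plus strand and 3 on the minus strand. The gaps between neighbours range between 65 bases (Mal-A5 and Mal-A6) and 1868 bases (Mal-A4 and Mal-A5). Amy-p (17118636 to 17120303, minus strand) and Amy-d (17124764 to 17126369, plus strand) point away from each other across 4460 bases. Each amylase transcript has 1 exon, and the maltase transcripts have between 3 and 7.

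The counts show these genes unequally, because reads that overlapped several transcripts were set aside as ambiguous, between 53.9% and 56.5% of the reads of a library. Mal-A1, Mal-A2, Mal-A3, Mal-A4, Mal-A8 and Amy-d have 1 transcript each, and between 95.5% and 100% of their exon bases are in no other transcript. The 4 remaining genes have 2 or 3 nested transcripts, and in each of them the longest transcript alone has bases of its own. These are 57 bases in Mal-A5, 73 in Amy-p, 399 in Mal-A6 and 792 in Mal-A7. The 6 transcripts that were not tested are the shorter ones of these genes, all with 0 counts in every library, and the longest one of Mal-A5. That Mal-A5 transcript had 0, 1 and 0 counts in LB-flies and 0 and 1 counts in NB-flies, so that the level of Mal-A5 cannot be seen in these counts. For the same reason the counts of Amy-p, Mal-A6 and Mal-A7 describe the extra part of 1 transcript and not the gene. Amy-p and Amy-d are also near-identical copies, and reads that fit both equally would be lost as not unique. Reads without a unique place in the genome made up between 1.26% and 1.94% of a library. Which share of them came from amylase was not tested. Mal-A1 overlaps exons of Cyp4e1 in 82 bases and Mal-A8 those of mtt in 6 bases.

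The libraries held between 23027411 and 26036113 counted reads, of which the members took 0.80%, 1.02% and 0.94% in LB-flies against 1.00% and 1.08% in NB-flies. Levels are given as CPM, counts scaled to a TMM-normalized library size of 1000000. The 12 testis markers summed to 4829, 4828 and 4596 CPM in LB-flies against 3995 and 3565 CPM in NB-flies. For 8 of them the LB values all lay above those of NB-flies (14.8% of all transcripts). The 14 ovary and egg shell markers, of which 5 had 0 counts, summed to between 8.13 and 10.4 CPM in LB-flies and between 5.68 and 6.45 CPM in NB-flies. The summed markers of the fat body, the Malpighian tubule and the larva overlapped between the groups. So did their single transcripts, except 1 of the Malpighian tubule (Irk2), whose LB values all lay above those of NB-flies (14.8% of all transcripts). The fat body sum was 16.3, 29.5 and 68.0 CPM in LB-flies against 65.1 and 55.9 CPM in NB-flies. The Malpighian tubule sum was 473, 377 and 960 CPM in LB-flies against 461.5 and 392 CPM in NB-flies. LB replicate 1 stood apart in the accessory gland markers, with a sum of 1780 CPM against 4936 and 5645 CPM in the other LB libraries and 3344 and 3392 CPM in the NB libraries.

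None of the 9 member transcripts passed the test. At an FDR of 0.05 (edgeR's quasi-likelihood test, Benjamini-Hochberg adjustment over all transcripts), 0 members were called, and 0 of the 17337 transcripts (0%). An unadjusted p under 0.05 was reached by 0 members, against 1313 transcripts (7.57%) of the whole table. DESeq2 also called 0 members, against 76 transcripts (0.438%) in all, and the members' adjusted p ranged from 0.712 to 0.994 in DESeq2 and from 0.655 to 0.993 in edgeR. The log2 fold change of LB-flies over NB-flies was below 0 in 7 members, against 52.6% of all transcripts, and its median over the 9 members was -0.20, against -0.02 over all transcripts. For 4 members all 3 LB values lay below both NB values, which was so for 13.1% of all transcripts, and for 0 members all LB values lay above (14.8% of all transcripts). The members are read from the same pools of RNA and are not independent of each other. In whole flies, fewer midgut cells and less RNA per cell cannot be told apart.

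**Figure D1:**
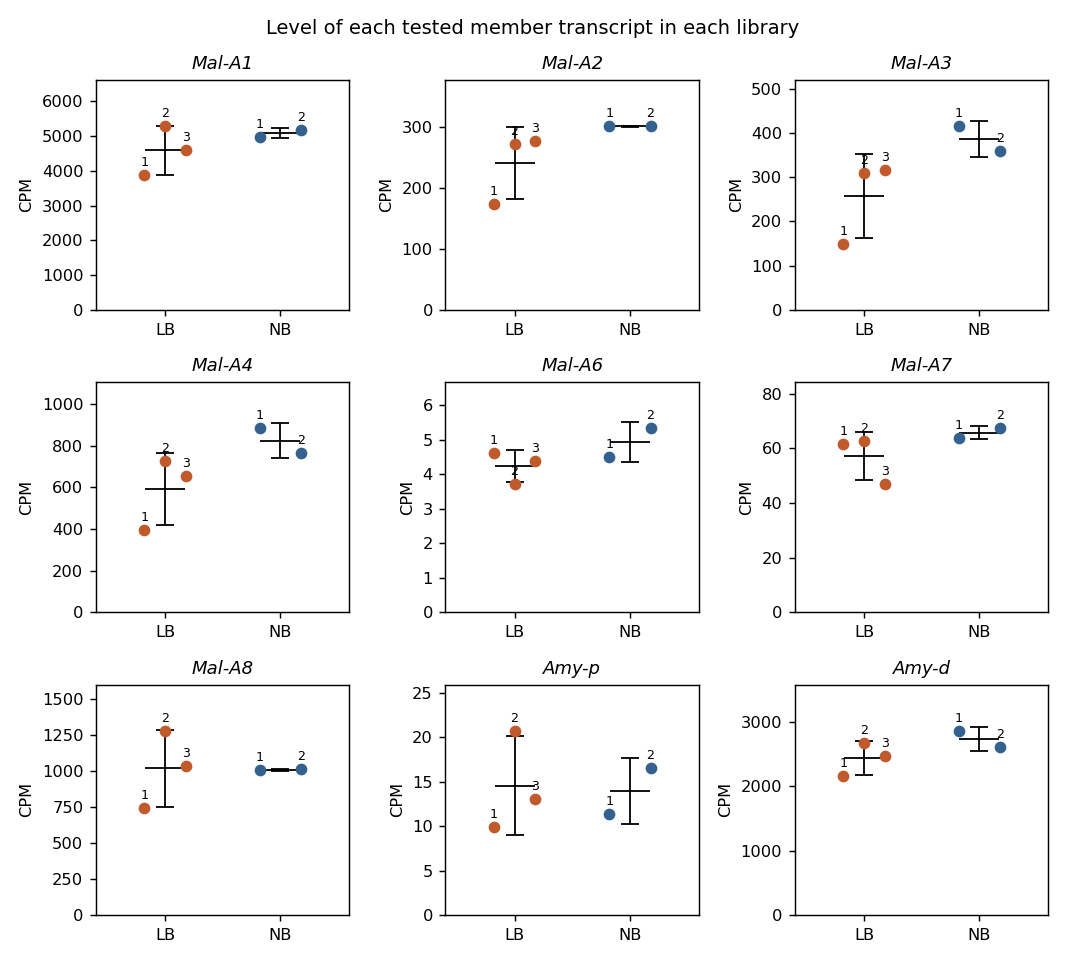
Level in CPM (vertical axes, from 0) of the 9 tested member transcripts in the LB libraries (left in each panel) and the NB libraries (right), with the replicate number beside each point and the mean ± SD as black bars. For Mal-A2, Mal-A3, Mal-A4 and Mal-A7 the 3 LB points lie below both NB points, and in 7 of the 9 panels LB replicate 1 is the lowest point.

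The neighbours Mal-A2, Mal-A3 and Mal-A4 had the most negative fold changes of the members. Mal-A3, the maltase once named LvpL, had 148, 309 and 317 CPM in LB-flies against 416 and 359 CPM in NB-flies. Its mean was 258 ± 95.1 CPM in LB-flies (SD, n = 3) and 388 ± 40.7 CPM in NB-flies (SD, n = 2). The log2 fold change was -0.59 (SE 0.33, 95% interval -1.38 to 0.20, edgeR adjusted p = 0.655). The groups did not overlap, but LB replicate 1 lay far below the other LB libraries, and without it the log2 fold change was -0.30.

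Mal-A4 had 396, 727 and 657 CPM in LB-flies against 884 and 765 CPM in NB-flies, again without overlap. Its log2 fold change was -0.47 (SE 0.26, 95% interval -1.12 to 0.17, edgeR adjusted p = 0.655), and -0.25 without LB replicate 1. Mal-A2, once named LvpD, had 173, 272 and 277 CPM in LB-flies against 301 and 302 CPM in NB-flies. The NB libraries were nearly equal here and the LB libraries were not, and the log2 fold change of -0.32 (SE 0.22, edgeR adjusted p = 0.707) was -0.13 without LB replicate 1. With each of the 5 libraries left out in turn, the fold change of these 3 genes and of Mal-A7 stayed negative. The lack of overlap between their groups already implies this, so it is no further support. It also stayed negative for Mal-A1, Mal-A6 and Amy-d, whose groups overlapped.

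The maltase with the most counts, Mal-A1, differed less. It had 3874, 5301 and 4606 CPM in LB-flies against 4983 and 5184 CPM in NB-flies. LB replicate 2 was the highest and LB replicate 1 the lowest of the 5 libraries, so that the groups overlapped. The log2 fold change was -0.15 (SE 0.17, 95% interval -0.57 to 0.27, edgeR adjusted p = 0.837), and -0.03 without LB replicate 1. Mal-A8, at the other end of the cluster, had 743, 1278 and 1030 CPM in LB-flies against 1003 and 1012 CPM in NB-flies. Its means were 1017 ± 268 CPM in LB-flies (SD, n = 3) and 1007 ± 6.63 CPM in NB-flies (SD, n = 2), and the log2 fold change was 0.01 (SE 0.23, 95% interval -0.55 to 0.58). Its LB values thus lay on both sides of the NB values, and its log2 fold change was 0.20 without LB replicate 1 and -0.20 without LB replicate 2.

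The remaining maltases rest on the extra bases of 1 transcript. Mal-A7 had 61.6, 62.6 and 47.1 CPM in LB-flies against 63.9 and 67.3 CPM in NB-flies. Here LB replicate 3 was the lowest library, and all LB values lay just below the NB values (log2 fold change -0.20, SE 0.16, edgeR adjusted p = 0.746). Mal-A6 had 4.62, 3.73 and 4.38 CPM in LB-flies against 4.51 and 5.33 CPM in NB-flies, on between 82 and 139 counts, and the groups overlapped (log2 fold change -0.21, SE 0.20).

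**Figure D2:**
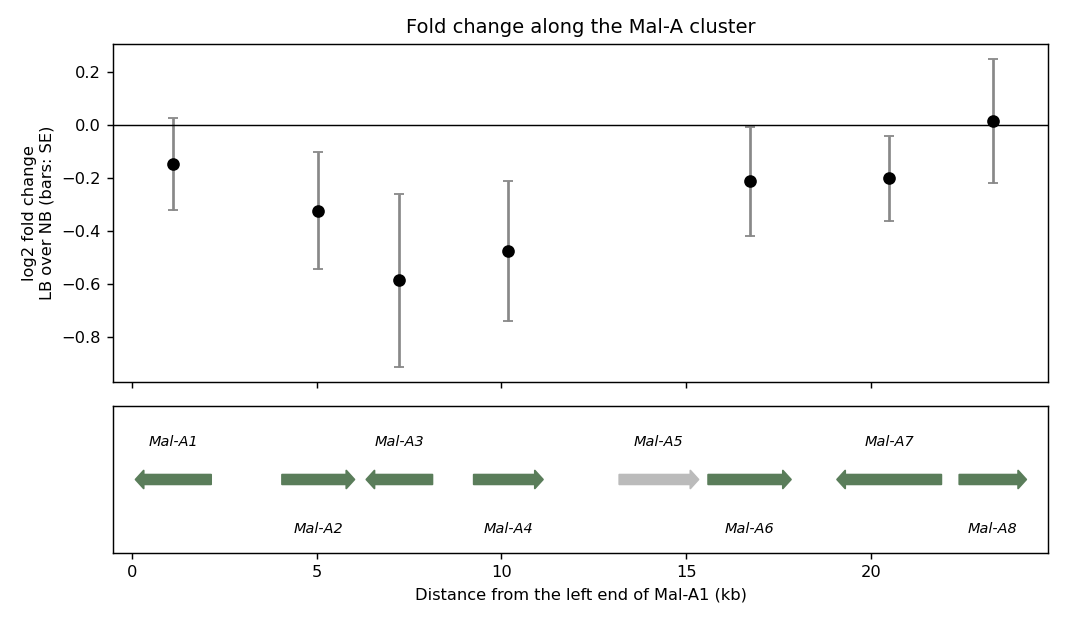
Log2 fold change of LB-flies over NB-flies (upper panel, points with SE) at the position of each Mal-A gene (lower panel, arrows in the direction of transcription, distance in kb from the left end of Mal-A1). The lowest points are those of Mal-A2, Mal-A3 and Mal-A4, which lie side by side, and Mal-A5, in grey, has no point because it had too few counts.

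Of the amylases, Amy-d carried nearly all the counts. Amy-d had 2159, 2677 and 2467 CPM in LB-flies against 2862 and 2603 CPM in NB-flies. LB replicate 2 lay between the NB libraries and the other LB libraries lay below them. Its mean was 2434 ± 260.4 CPM in LB-flies (SD, n = 3) and 2732 ± 183 CPM in NB-flies (SD, n = 2). This gave a log2 fold change of -0.17 (SE 0.15, 95% interval -0.53 to 0.20, edgeR adjusted p = 0.779). Amy-p had 9.93, 20.8 and 13.0 CPM in LB-flies against 11.4 and 16.6 CPM in NB-flies, on between 260 and 457 counts in its 73 bases. Its LB values enclosed the NB values, and its log2 fold change of 0.06 (SE 0.34) was -0.30 without LB replicate 2. The lower level of Amy-p therefore describes its extra bases only, and the 2 amylase genes cannot be compared by these counts. With the counts of both amylases summed, the log2 fold change was -0.17.

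**Figure D3:**
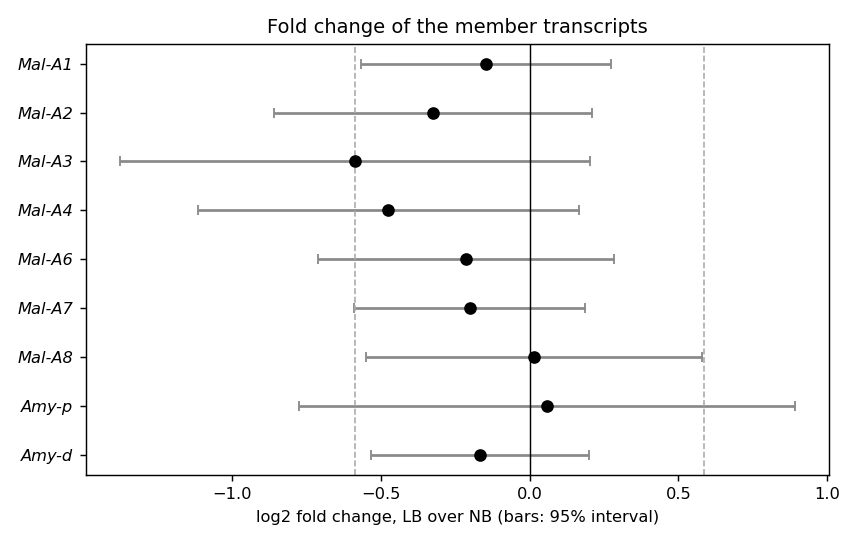
Log2 fold change of LB-flies over NB-flies for the 9 member transcripts (horizontal axis, points) with the 95% interval of edgeR's quasi-likelihood fit (bars), and dashed lines at a 1.5-fold change. All 9 intervals include 0, and those of Mal-A1, Mal-A8 and Amy-d lie within a 1.5-fold change in either direction.

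The intervals show what these 5 libraries could have resolved. Those of Mal-A1, Mal-A8 and Amy-d, the 3 members with the most counts, lay within a 1.5-fold change in either direction. The intervals of the other 6 members included a 1.5-fold fall, that of Mal-A7 only just, and that of Amy-p also a 1.5-fold rise. Between the LB libraries the highest and lowest value of a member differed by between 1.24-fold and 2.14-fold, and between the NB libraries by between 1.00-fold and 1.46-fold.

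LB replicate 1 was the lowest of the 5 libraries for 7 of the 9 members, against 22.8% of all transcripts. Among the transcripts of at least 10 CPM it was lowest for 7 of 8 members, against 24.2% of 6459 transcripts. It was also lowest for the sum of other digestive enzymes, though not for each of their transcripts. A list of 35 genes for trypsins, Jonah and other serine proteases, lysozymes and a lipase of the midgut had 31 tested transcripts with a sum of 6209, 9773 and 8162 CPM in LB-flies against 13182 and 12207 CPM in NB-flies. In this list 27 transcripts had a fold change below 0 (52.6% of all transcripts), and for 13 the LB values all lay below those of NB-flies (13.1%). edgeR called 0 of them, with 8 lower in LB-flies (3.66% of all transcripts) and 1 higher (3.91%) at an unadjusted p under 0.05. DESeq2 called 1 (0.438% of all transcripts), Ser8, a predicted serine protease (log2 fold change -1.41). The next in p were the Jonah proteases Jon99Ciii and Jon25Bi, with log2 fold changes of -0.83 and -1.42. A list of 13 genes that mark midgut cell types summed to 95.7, 85.2 and 96.1 CPM in LB-flies against 93.1 and 83.0 CPM in NB-flies, with overlapping groups. For 4 of its 18 tested transcripts the LB values all lay below those of NB-flies (13.1% of all transcripts). edgeR and DESeq2 each called 0, with 0 at an unadjusted p under 0.05. The part of these differences, and of the higher testis marker sum in LB-flies, in the members' values was not tested. Of the 12 testis markers, 4 were higher (3.91% of all transcripts) and 0 lower (3.66%) at an unadjusted p under 0.05 in edgeR. edgeR called 0 of them, and DESeq2 called 1 (0.438% of all transcripts), Mst84Dc, which was higher in LB-flies.

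**Figure D4:**
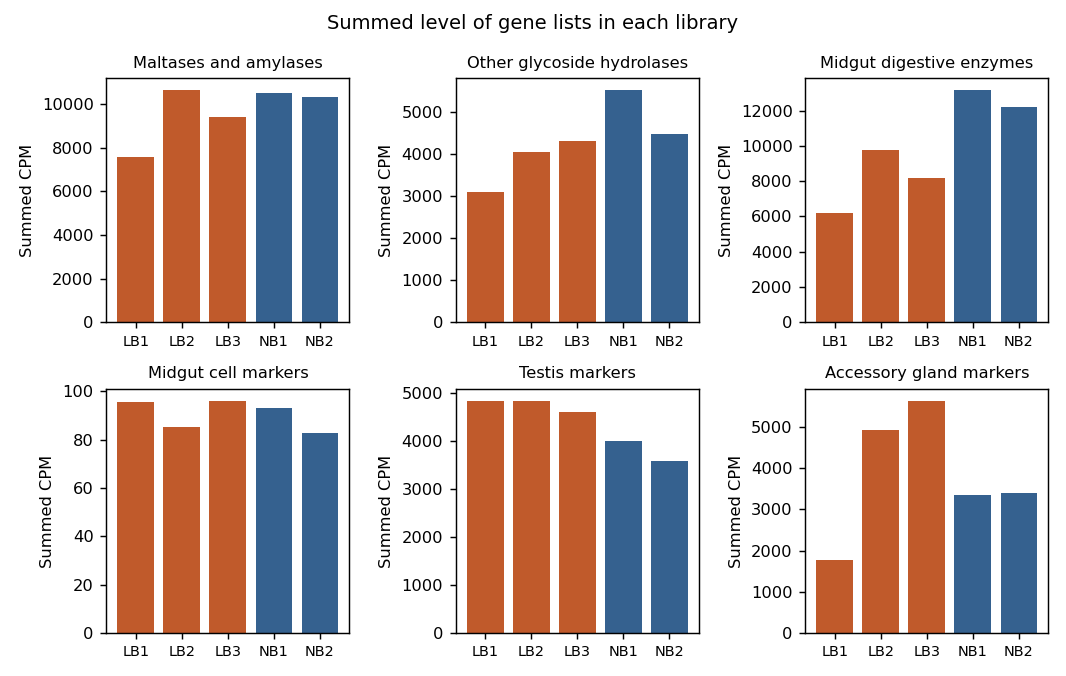
Summed level in CPM (vertical axes, from 0) of 6 gene lists in each library, with LB replicates 1 to 3 on the left and NB replicates 1 and 2 on the right of each panel. LB replicate 1 is the lowest bar for the maltases and amylases, the mixed list titled other glycoside hydrolases, the midgut digestive enzymes and the accessory gland markers, but not for the midgut cell markers or the testis markers.

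Within a library, the order of the members changed little. Per kb of exon that could be counted, and for the 6 genes with 1 transcript, Mal-A1 was the highest, with 2634 ± 409 CPM per kb in LB-flies (SD, n = 3) and 2915 ± 81.5 CPM per kb in NB-flies (SD, n = 2). Amy-d followed with 1516 ± 162 CPM per kb in LB-flies and 1701 ± 114 CPM per kb in NB-flies. All exon bases of Amy-d were taken as countable here, although reads that fit Amy-p equally would be lost. Its value per kb may therefore be too low, and its place below Mal-A1 is not settled. Mal-A8 had 562 ± 148 CPM per kb in LB-flies and 557 ± 3.68 CPM per kb in NB-flies. Mal-A4, below it in each library, had 332 ± 97.5 CPM per kb in LB-flies and 462 ± 47.2 CPM per kb in NB-flies. The lowest were Mal-A3, with 144 ± 53.0 CPM per kb in LB-flies and 216 ± 22.7 CPM per kb in NB-flies, and Mal-A2, with 118 ± 28.8 CPM per kb in LB-flies and 148 ± 0.358 CPM per kb in NB-flies. These last genes did not differ beyond their spread in LB-flies, and in LB replicate 1 Mal-A2 was the higher. Mal-A1 alone took 51.2%, 49.8% and 48.9% of the members' counts in LB-flies against 47.3% and 50.3% in NB-flies, and Amy-d took 28.5%, 25.1% and 26.2% in LB-flies against 27.2% and 25.2% in NB-flies.

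Set against Mal-A1 in the same library, a ratio that depth does not enter, the values of Mal-A3 and Mal-A4 did not overlap between the groups. Mal-A4 stood at 10.2%, 13.7% and 14.3% of the Mal-A1 level (CPM over CPM) in LB-flies against 17.7% and 14.8% in NB-flies. Mal-A3 stood at 3.83%, 5.83% and 6.88% in LB-flies against 8.35% and 6.92% in NB-flies. The gap between the nearest libraries of the 2 groups was small for both genes. The ratios of the other 6 members overlapped, among them Mal-A2 with 4.47%, 5.13% and 6.02% in LB-flies against 6.03% and 5.82% in NB-flies. These ratios are given as a description and were not tested. The share of all transcripts whose ratio to Mal-A1 does not overlap was not taken, so no weight can be put on these counts of members.

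The transcripts most like Mal-A1 over the 5 libraries were those of Non2, CstF50, PCID2, CG9344 and CG9018. Their centred log2 profiles lay within a root mean square difference of 0.02 to 0.05 of that of Mal-A1, the smallest among 6458 transcripts of at least 10 CPM. None of these 5 is a member.

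Outside the Mal-A cluster, a mixed list of 10 genes had 19 tested transcripts. It holds Mal-B1, Mal-B2, Amyrel, tobi, CG33080, Treh (trehalase) and GCS2alpha (a glucosidase of glycoprotein processing). It also holds Glyp (glycogen phosphorylase), AGBE (which branches glycogen as it is built) and CD98hc (a subunit of amino acid transporters), so its counts describe no single pathway. The fold change was below 0 for 15 of the 19 transcripts (52.6% of all transcripts), the LB values all lay below those of NB-flies for 4 (13.1%), and the median log2 fold change was -0.34. edgeR called 0 of them, with 4 at an unadjusted p under 0.05, all lower in LB-flies (3.66% of all transcripts). DESeq2 called 1 (0.438% of all transcripts), a transcript of CG33080, a predicted enzyme of carbohydrate metabolism. It had 4.58, 5.36 and 6.20 CPM in LB-flies against 11.0 and 9.86 CPM in NB-flies (log2 fold change -0.95, SE 0.20, DESeq2 adjusted p = 0.0293). The other tested transcripts of CG33080, with log2 fold changes of -0.34 and -0.48, overlapped between the groups. Amyrel, a relative of the amylases, had 1.41, 3.36 and 5.90 CPM in LB-flies against 12.0 and 9.63 CPM in NB-flies. All LB values lay below the NB values (log2 fold change -1.61, SE 0.52, edgeR adjusted p = 0.625). Of the other maltase locus, the transcript of Mal-B2 with more counts had 180, 117 and 122 CPM in LB-flies against 175 and 255 CPM in NB-flies. Its groups overlapped (log2 fold change -0.62, SE 0.25, edgeR adjusted p = 0.625). The transcript of Mal-B2 with fewer counts, whose groups did not overlap, had 11.8, 14.4 and 14.0 CPM in LB-flies against 17.6 and 31.0 CPM in NB-flies (log2 fold change -0.86, SE 0.26, edgeR adjusted p = 0.625). Because reads over several transcripts were set aside, these counts do not show which transcript of Mal-B2 was the more abundant. The neighbouring gene Mal-B1 overlapped between the groups, with a log2 fold change of 0.11 (SE 0.37).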

How the data were processed

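The authors deposited raw read counts per RefSeq transcript, in 1 table per library. Per the paper's methods, reads were trimmed with TrimGalore and Cutadapt, aligned with HiSat2 (dm6, repeats masked) and counted with HTSeq. The counting mode and strand setting are not given in the sources used here. The 5 summary lines of each file were left out. Transcripts were matched to symbols in a RefSeq gene table of the same genome assembly. With the version number of the transcript 33766 of 34111 matched, and 33912 when it was dropped. Exons were taken from an Ensembl annotation with the same coordinates. Counts were TMM-normalized and tested with edgeR 4.0.16 (quasi-likelihood test) in R 4.3.3, with adjustment over all 17337 transcripts that had at least 10 summed counts. SE and 95% intervals come from this fit. Alternatives were DESeq2 1.42.0, limma-voom (limma 3.58.1), other scalings and filters, transcripts summed to genes, the amylases summed, replicate blocks and each library left out. The test was tested on simulated data. All 10 members are named, and of another list at most 3 genes with the smallest p and those DESeq2 called; Mal-B1 was added after its values were seen. The members and lists were chosen with earlier results of these data known. The vials of a group are separate, but belong to 1 experiment.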

Additional observations from a re-analysis of the deposited data

How the results depend on the processing

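No member was called at an FDR of 0.05 under any of the 16 alternatives, and the smallest edgeR, limma or DESeq2 adjusted p of a member was 0.437. Over all transcripts edgeR called 0, against 76 with DESeq2, 5 with a replicate block by repeat number, and between 0 and 1 with each library left out. Transcripts at an unadjusted p under 0.05 numbered 1313, against 805 with the block by repeat number, 422 with that by library name, 873 with crossed library name numbers, 2007 without LB replicate 1, 644 without LB replicate 2 and 482 without NB replicate 2. Members at that p numbered 0, and 2 with the crossed replicate block, which was chosen after seeing the data. The reason was a mean correlation of -0.20 between libraries with the same library name number (-0.086 by repeat number). It was taken over 6886 transcripts, on log2 CPM less the mean of each library's own group. With only 2 NB libraries, the deviations of NB replicate 2 mirror those of NB replicate 1. Crossing them therefore gives 0.20 by construction, which is no support for the crossed pairs. The members' median log2 fold change was -0.20, and between -0.29 and -0.13 with a library left out. Of 143 values of single members, 10 changed sign, all of Mal-A8 and Amy-p. Mal-A8 was at -0.022 with limma-voom, -0.048 with the block by repeat number, -0.20 with blocks by library name, -0.20 with the crossed pairs, and between -0.20 and 0.20 with a library left out. Amy-p was at -0.27 with blocks by library name, -0.27 with the crossed pairs, and between -0.30 and 0.36 with a library left out. The cause of these changes was not tested. A block left 1 LB library without a partner.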

Other observations

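Other genes of sugar handling were measured in the same libraries. A list of 15 sugar transporters and hexokinases gave 24 tested transcripts. The fold change was below 0 for 15 (52.6% of all transcripts), and the LB values all lay below those of NB-flies for 8 (13.1%) and above them for 2 (14.8%). edgeR called 0 of them, with 7 lower (3.66% of all transcripts) and 1 higher (3.91%) at an unadjusted p under 0.05, and DESeq2 called 2 (0.438%). These were 1 of the 2 tested transcripts of nebu, a predicted sugar transporter, with 31.0, 32.4 and 37.0 CPM in LB-flies against 75.0 and 56.0 CPM in NB-flies, and the hexokinase gene Hex-C, with 351, 325 and 360 CPM in LB-flies against 669 and 520 CPM in NB-flies. The log2 fold change was -0.97 (SE 0.17) for this transcript of nebu and -0.78 (SE 0.15) for Hex-C. The other transcript of nebu had 19.4, 14.0 and 22.5 CPM in LB-flies against 27.3 and 22.3 CPM in NB-flies, with overlapping groups and a log2 fold change of -0.41 (SE 0.23).

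A list of 18 genes of sugar sensing and of the control of sugar digestion had 24 tested transcripts, with 0 at an unadjusted p under 0.05 in edgeR and 0 called by edgeR or DESeq2. The fold change was below 0 for 20 of them (52.6% of all transcripts), and the median log2 fold change was -0.19. The LB values all lay below those of NB-flies for 3 (13.1% of all transcripts) and above them for 1 (14.8%). The smallest p was that of a transcript of babo, a receptor for activin-like ligands, with 2.52, 1.82 and 1.98 CPM in LB-flies against 3.63 and 2.76 CPM in NB-flies (log2 fold change -0.60). Of the other babo transcripts, that at a log2 fold change of -0.42 also had all LB values below those of NB-flies, and that at -0.17 overlapped between the groups. sug, one of the 4 transcripts with a positive fold change, which encodes the transcription factor sugarbabe, had 0.535, 0.999 and 3.67 CPM in LB-flies against 0.645 and 0.153 CPM in NB-flies, with overlapping groups and a log2 fold change of 2.11 (SE 1.00). Its highest value was that of LB replicate 3, and the other 4 libraries lay at or under 1 CPM. Ilp2, an insulin-like peptide gene, had between 6.62 and 8.90 CPM in LB-flies against 11.3 and 9.63 CPM in NB-flies, without overlap and with a log2 fold change of -0.42.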
